A study of Mus musculus with 25 samples.

Results

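GABA and glutamate are the main fast inhibitory and excitatory transmitters of the brain, and both are also made in pancreatic islets, where beta cells hold GABA and alpha cells release glutamate. GABA is made from glutamate by the decarboxylases GAD67 (Gad1) and GAD65 (Gad2) and is sensed by chloride channels built of GABA-A subunits and by the G protein-coupled GABA-B receptor. Glutamate is sensed by AMPA, kainate and NMDA channels and by metabotropic receptors, and each transmitter is loaded into vesicles by its own transporters. The genes of these receptors, of GABA synthesis and of vesicular loading were taken by symbol from the RNA-seq tables, which gave 51 of 24439 genes. Peaks of open chromatin were taken where the deposited annotation named such a gene as the nearest, which gave 211 of 65053 peaks. A nearest gene is not shown to be the target of a peak.

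The samples were mouse islet tumour lines in culture: alpha TC1 clone 6 (αTC1), a glucagon-producing clonal line, and beta-TC-6 (βTC6), an insulin-producing line. No agent or genetic change was added to either, and each was grown in its own medium, so that line and medium cannot be told apart. RNA-seq was run on 3 libraries of each line, ATAC-seq, which counts transposase insertions in open chromatin, on 5 libraries of each line, and ATAC-seq once on each of 9 mixtures that held 10% to 90% αTC1 cells. Neither the labels nor the methods say whether replicates were separate cultures, so p-values measure the spread between libraries only. A positive log2 fold change means higher in βTC6.

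Expected counts per RNA-seq library summed to between 21954031 and 26033482. Reads in consensus peaks ranged from 4397851 to 10374903 in the pure ATAC-seq libraries and from 5277983 to 7294832 in the mixtures. αTC1 RNA replicate 3 stood apart from replicates 1 and 2, with a mean chi-square per gene of 26.3 and 27.7 against them, next to 2.03 between those 2, and the βTC6 RNA libraries differed from each other by 16.4 to 36.2. ATAC replicates 4 and 5 differed from replicates 1 to 3 in both lines. Glucagon (Gcg) was at 12113, 12267 and 14406 FPKM (fragments per kilobase of transcript, scaled to the mapped total) in αTC1 and insulin 2 (Ins2) at 30954, 35748 and 23541 FPKM in βTC6, but βTC6 also held 172 to 267 FPKM of Gcg and 207 to 325 FPKM of somatostatin (Sst), which was at 0 in αTC1. Of the other delta cell markers listed, Rbp4 went the other way, at 1240 to 1678 FPKM in αTC1 and 183 to 258 FPKM in βTC6, and Hhex stayed at or under 0.13 FPKM. Among neuronal markers, Tubb3 and Syn1 were expressed in both lines and were higher in βTC6, the summed FPKM of the 3 markers measured being 43.6 to 51.7 in αTC1 and 101 to 107 in βTC6, while Rbfox3, which marks mature neurons, stayed at or under 0.4 FPKM. The part of these differences in the results that follow was not tested.

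A few sequences show what the peaks that carry the results look like. They are 200-base stretches of mm9, plus strand, taken outside annotated exons and nearest to the centre of each peak, with every CG dinucleotide in capitals. The first 4 lie in peaks at the start sites of genes that were nearly silent in αTC1 and expressed in βTC6. The Grik2 promoter stretch comes from a gene that fell in βTC6 while this peak stayed open in both lines. The last pair are the intronic peaks with the strongest change in each direction.
Gabbr2 promoter, chr4:47004746-47004945: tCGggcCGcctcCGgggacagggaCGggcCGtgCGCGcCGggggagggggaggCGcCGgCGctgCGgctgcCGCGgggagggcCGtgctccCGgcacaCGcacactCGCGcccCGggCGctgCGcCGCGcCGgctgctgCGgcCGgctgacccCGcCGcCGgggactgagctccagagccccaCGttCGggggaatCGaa
Gad2 promoter, chr2:22477525-22477724: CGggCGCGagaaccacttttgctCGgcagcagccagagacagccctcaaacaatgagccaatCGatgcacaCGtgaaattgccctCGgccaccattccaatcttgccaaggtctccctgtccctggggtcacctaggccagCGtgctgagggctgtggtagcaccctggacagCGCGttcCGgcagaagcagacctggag
Gabrq promoter, chrX:70070317-70070516: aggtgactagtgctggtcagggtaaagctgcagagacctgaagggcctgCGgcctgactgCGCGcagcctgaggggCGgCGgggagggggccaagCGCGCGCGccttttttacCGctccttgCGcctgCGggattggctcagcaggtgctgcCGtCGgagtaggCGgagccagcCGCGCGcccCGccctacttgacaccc
Gria4 promoter, chr9:4795645-4795844: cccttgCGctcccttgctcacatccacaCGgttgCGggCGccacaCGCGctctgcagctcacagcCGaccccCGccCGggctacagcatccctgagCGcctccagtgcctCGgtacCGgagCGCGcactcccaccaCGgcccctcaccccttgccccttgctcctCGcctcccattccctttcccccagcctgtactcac
Grik2 promoter, chr10:49508573-49508772: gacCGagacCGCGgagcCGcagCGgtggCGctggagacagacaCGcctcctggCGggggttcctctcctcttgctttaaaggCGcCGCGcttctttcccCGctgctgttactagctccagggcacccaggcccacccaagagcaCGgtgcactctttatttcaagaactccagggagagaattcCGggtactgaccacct
Grik1 intron, chr16:88048796-88048995: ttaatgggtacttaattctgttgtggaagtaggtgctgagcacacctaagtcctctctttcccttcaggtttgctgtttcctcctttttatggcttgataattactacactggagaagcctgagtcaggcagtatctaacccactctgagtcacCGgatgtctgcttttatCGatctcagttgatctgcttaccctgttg
Grik2 intron, chr10:49317307-49317506: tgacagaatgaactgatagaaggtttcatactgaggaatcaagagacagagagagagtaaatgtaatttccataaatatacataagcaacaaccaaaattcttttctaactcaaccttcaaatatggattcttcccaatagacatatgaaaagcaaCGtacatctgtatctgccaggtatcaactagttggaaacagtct
The 5 promoter stretches held between 11 and 33 CG dinucleotides and the intronic ones 2 and 1. Over the central 200 bases of all peaks, the median was 16 within 2 kb of a start site and 2 farther away, and the member peaks had medians of 10 and 2. The homeobox core TAATTA occurs in the Grik1 stretch. Searched on both strands, it was present in 17 of the 211 member peaks (8.06%) and in 6.92% of all peaks, the E-box core CAGCTG in 14.2% and 17.2%, and the cAMP response element TGACGTCA in 0.948% and 0.761%.

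Gabbr2, several GABA-A subunits, Gad2 and 1 AMPA subunit were higher in βTC6, and 1 kainate subunit was lower. Of the 51 genes, 14 reached 1 FPKM in all replicates of a line and entered the test (edgeR quasi-likelihood, FDR under 5% and absolute log2 fold change over 2). Higher in βTC6 were 7 of the 14 (among them Gabbr2, Gabra3, Gabra4, Gabrq, Gad2 and Gria4), next to 10.2% of all genes tested, and lower was 1 of the 14 (Grik2), next to 4.08%. By FDR alone, 10 were higher and 4 lower, so that every gene tested differed, beside 38.7% and 36.0% of all genes. With spike-in scaling 7 were higher and 2 lower by FDR alone, beside 17.5% and 11.8%, and the calls that ended include Gabbr1, Grin1, Gria3 and Grik5. A gene that passed this filter only through its level in one line was more likely to differ, so these counts describe the 14 and not all 51. The median log2 fold change was 2.12 over the 14 and 0.01 over the 12195 genes tested. In αTC1 7 of the 51 genes reached 1 FPKM in every library, and in βTC6 13 did.

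**Figure D1:**
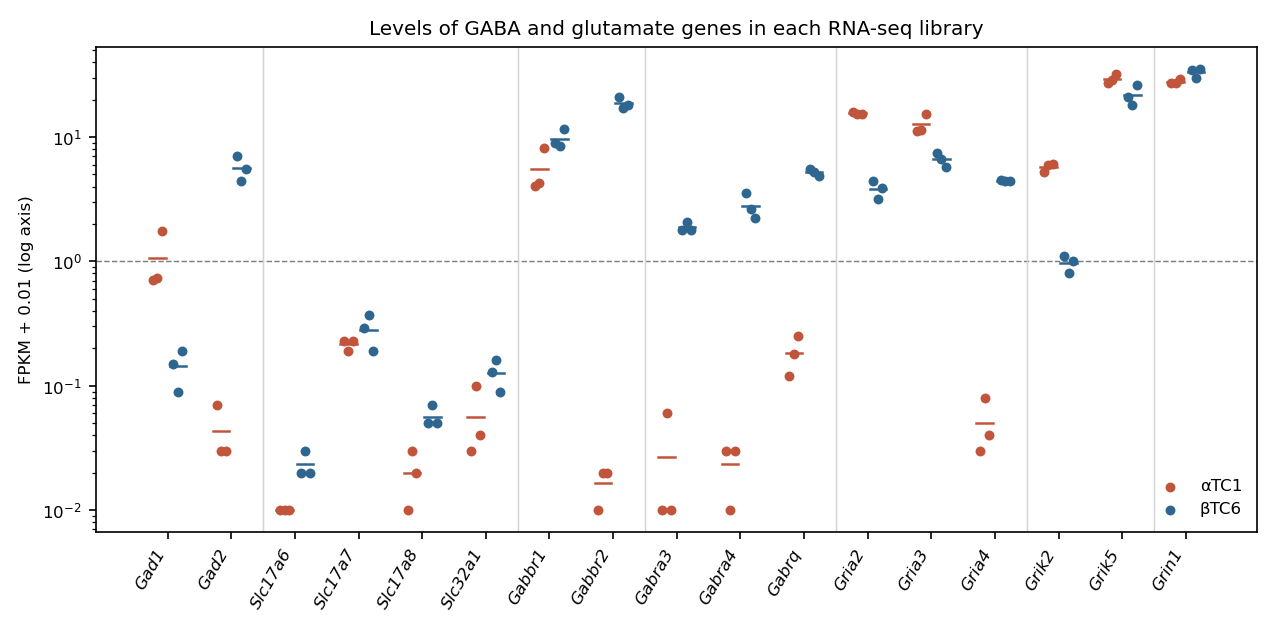
FPKM plus 0.01 on a log axis for the tested genes described here and for the other synthesis and vesicular genes, 1 point per RNA-seq library (αTC1 red, βTC6 blue), with short bars at the mean of 3 libraries and a dashed line at 1 FPKM. Gabbr2, Gabra3, Gabra4, Gad2 and Gria4 lie under 0.1 FPKM in every αTC1 library and over 1.5 FPKM in every βTC6 library, whereas Grik5 and Grin1 lie above 10 FPKM in all 6 libraries.

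The RNA of the GABA synthesis genes differed in opposite directions between the lines, and synthesis itself was not measured. Gad2, whose product GAD65 is a membrane-anchored decarboxylase and a known autoantigen of type 1 diabetes, was at 0.06, 0.02 and 0.02 FPKM in αTC1 and at 6.99, 4.43 and 5.5 FPKM in βTC6. The groups lay far apart, with 13 counts in all αTC1 libraries and 2403 in βTC6 (log2 fold change 7.44 ± 0.30 SE, edgeR FDR = 7.52e-08). Gad1, which encodes the cytosolic GAD67, was at 0.7, 0.73 and 1.75 FPKM in αTC1 and at 0.14, 0.08 and 0.18 FPKM in βTC6. It was thus low in both lines and lower in βTC6 without overlap, and its highest library was αTC1 replicate 3. It missed the level filter, and in the fit without that filter its log2 fold change was -3.58 ± 0.50 (edgeR FDR = 4.38e-05), or -2.97 ± 0.42 (edgeR FDR = 0.000131) without αTC1 replicate 3. In bulk RNA, fewer cells that use a gene and less RNA per cell cannot be told apart.

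Vesicular loading genes were close to silent in both lines. Slc32a1, the vesicular GABA transporter, was at 0.02, 0.09 and 0.03 FPKM in αTC1 and 0.12, 0.15 and 0.08 FPKM in βTC6. Of the vesicular glutamate transporters, Slc17a7 (VGLUT1) was the highest, at 0.22, 0.18 and 0.22 FPKM in αTC1 and 0.28, 0.36 and 0.18 FPKM in βTC6. Slc17a6 (VGLUT2) was at 0 in αTC1 and at 0.01 to 0.02 FPKM in βTC6, and Slc17a8 (VGLUT3) did not exceed 0.06 FPKM. In the fit without a filter none of the 4 passed the test, with edgeR FDR between 0.105 for Slc17a6 and 0.388 for Slc17a7.

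Both subunits of the GABA-B receptor were expressed in βTC6, while αTC1 had Gabbr1 with next to no Gabbr2. The receptor works as a dimer in which GABBR1 binds GABA and GABBR2 couples to the G protein. Gabbr2 was at 0, 0.01 and 0.01 FPKM in αTC1 and at 20.95, 17.19 and 18.06 FPKM in βTC6. These levels rested on 3 counts in all αTC1 libraries and 8328 in βTC6, a ratio of 2591 with an exact 95% counting interval from 886 to 12560 (fitted log2 fold change 11.23 ± 0.24, edgeR FDR = 2.57e-09). Gabbr2 had the largest fold of the 14, and its fitted value became 12.05 without αTC1 replicate 3. Gabbr1 was at 4.02, 4.27 and 8.17 FPKM in αTC1 and at 8.87, 8.45 and 11.61 FPKM in βTC6. The groups did not overlap, but αTC1 replicate 3 lay nearer to βTC6 than to the other αTC1 libraries, and the log2 fold change of 0.75 ± 0.27 (edgeR FDR = 0.0284) became 1.19 without it. The call by FDR ended without αTC1 replicate 1 or 2 or βTC6 replicate 1 or 3 (edgeR FDR between 0.059 and 0.0947) and with spike-in scaling (edgeR FDR = 0.257). Gabbr1 made up 99.8% to 100% of the GABA-B FPKM in αTC1 and 29.8% to 39.1% in βTC6.

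The GABA-A channel is a pentamer usually made of alpha, beta and other subunits. Summed over the class, rho subunits included, it reached 15.6 to 19.3 FPKM in αTC1 and 33.4 to 39.7 FPKM in βTC6. Alpha subunits form the GABA site together with a beta subunit. Gabra3 was at 0, 0.05 and 0 FPKM in αTC1 and 1.78, 2.05 and 1.78 FPKM in βTC6, and Gabra4 at 0.02, 0 and 0.02 FPKM and at 3.55, 2.62 and 2.23 FPKM. Both were thus at no more than a few reads in αTC1. Their count ratios were 152 (exact 95% counting interval 51.6 to 739) for Gabra3 and 209 (81.2 to 767) for Gabra4, with edgeR FDR of 2.59e-06 and 5.23e-07. All 3 αTC1 counts of Gabra3 came from replicate 2, and its fitted log2 fold change of 7.14 became 10.33 without that library. In βTC6 they made up 4.48% to 5.47% and 6.68% to 8.94% of the class.

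Gabrq, the theta subunit, was at 0.11, 0.17 and 0.24 FPKM in αTC1 and at 5.51, 5.22 and 4.88 FPKM in βTC6 (log2 fold change 5.12 ± 0.20, edgeR FDR = 6.92e-08). Every βTC6 library lay above every αTC1 library, and the gene took 13.9% to 14.6% of the class in βTC6. Gabrd, the delta subunit of extrasynaptic receptors, went the other way at a low level, with 1.51, 1.32 and 0.61 FPKM in αTC1 and 0.24, 0.35 and 0.28 FPKM in βTC6. It missed the level filter only through αTC1 replicate 3, and the fit without the filter gave -1.99 ± 0.39 (edgeR FDR = 0.000709), or -2.29 without that library. The other 10 GABA-A subunits and the 3 rho subunits stayed at or under 0.59 FPKM in all libraries, and Gabra6, Gabrg3 and Gabrp had no counts at all.

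**Figure D2:**
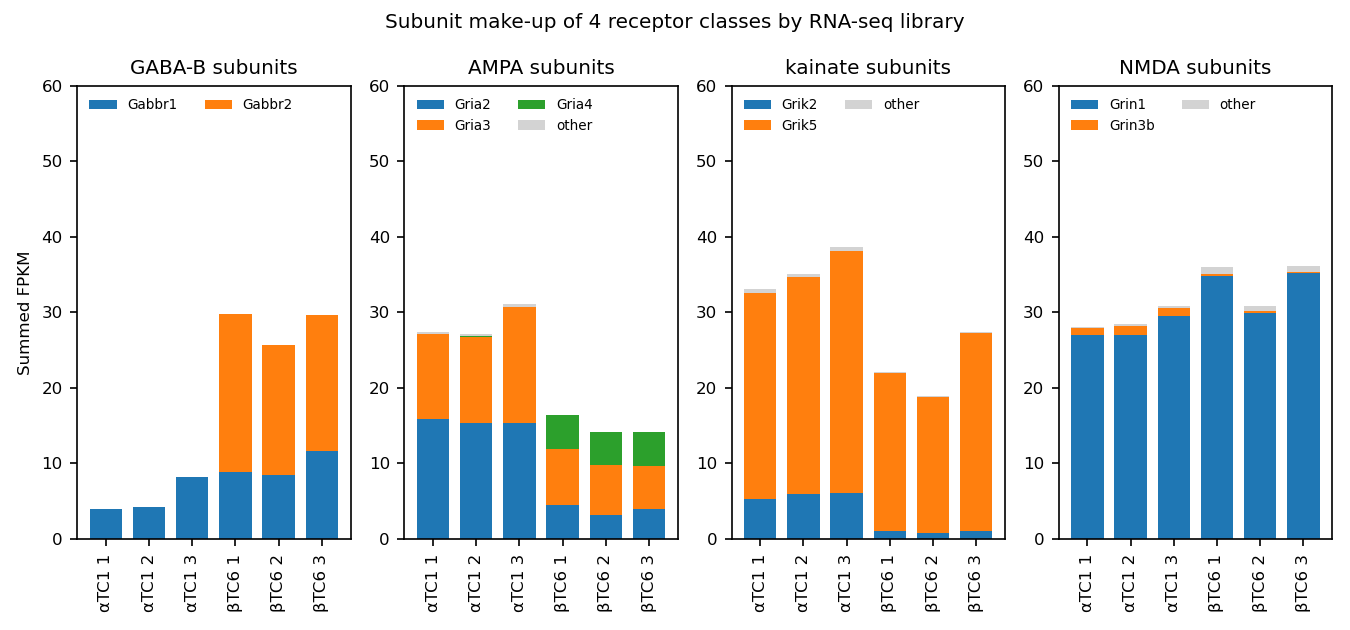
Stacked bars of FPKM for the subunits of 4 receptor classes in each RNA-seq library, starting at 0 on a shared scale. Subunits that reach 1 FPKM in some library are coloured and the rest are grey. GABA-B bars sum to between 4.02 and 8.18 in αTC1, almost all Gabbr1, and to between 25.6 and 29.8 in βTC6, mostly Gabbr2. AMPA bars are lower in βTC6, and the NMDA bars are almost all Grin1.

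AMPA subunits changed in make-up as well as in sum. Gria2, the subunit that makes AMPA channels impermeable to calcium once edited, was at 15.89, 15.42 and 15.33 FPKM in αTC1 and at 4.44, 3.19 and 3.91 FPKM in βTC6 (log2 fold change -1.96 ± 0.11, edgeR FDR = 4.5e-07), just short of the fold threshold, which it passed at -2.08 without βTC6 replicate 1. Gria4 was at 0.02, 0.07 and 0.03 FPKM in αTC1 and at 4.48, 4.41 and 4.41 FPKM in βTC6 (log2 fold change 7.37 ± 0.27, edgeR FDR = 4.1e-08). Gria3 was at 11.28, 11.34 and 15.37 FPKM in αTC1 and 7.47, 6.61 and 5.78 FPKM in βTC6 (log2 fold change -0.73 ± 0.11, edgeR FDR = 0.000256). None of the 3 overlapped between lines. Gria2 made up 49.4% to 58.0% of AMPA FPKM in αTC1 and 22.4% to 27.7% in βTC6, where Gria4 took 27.3% to 31.3%, while Gria3 stayed between 41.0% and 49.5% in all 6 libraries. Gria1 was at 0.19 to 0.33 FPKM in αTC1 and at 0.01 FPKM in each βTC6 library, 97 counts against 5, which is a ratio of 20.8 (exact 95% counting interval 8.61 to 65.5).

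Kainate subunits were led by Grik5 in both lines, a subunit that forms channels only together with subunits such as GluK2 (Grik2). Grik5 was at 27.38, 28.81 and 32.08 FPKM in αTC1 and 20.92, 18.03 and 26.29 FPKM in βTC6 (log2 fold change -0.38 ± 0.13, edgeR FDR = 0.0236). That call by FDR ended without αTC1 replicate 3 or βTC6 replicate 1 or 2 (edgeR FDR between 0.0642 and 0.0773) and with spike-in scaling (edgeR FDR = 0.449). Grik2 was at 5.24, 5.9 and 6.11 FPKM in αTC1 and 1.09, 0.79 and 1 FPKM in βTC6 (log2 fold change -2.49 ± 0.18, edgeR FDR = 2.37e-06), the only one of the 14 called lower in βTC6. Grik2 took 15.8% to 16.8% of kainate FPKM in αTC1 and 3.65% to 4.94% in βTC6. Grik3 and Grik4 were seen almost only in αTC1, at 0.07 to 0.12 and 0.34 to 0.45 FPKM, and Grik1 only in βTC6, at 0.05 to 0.1 FPKM.

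NMDA receptors need GluN1 (Grin1) together with GluN2 or GluN3 subunits. Grin1 was among the most abundant members, at 27.02, 27.05 and 29.48 FPKM in αTC1 and at 34.89, 29.91 and 35.2 FPKM in βTC6 (log2 fold change 0.30 ± 0.08, edgeR FDR = 0.00916). Its share of NMDA FPKM was 95.1% to 96.2% in αTC1 and 96.7% to 97.4% in βTC6. The partners were thus scarce in both lines. Grin2d reached at most 0.52 FPKM, Grin3a 0.26 FPKM, Grin2a, Grin2b and Grin2c at most 0.12 FPKM, and Grin3b, at 0.88, 1.17 and 1.08 FPKM in αTC1 and 0.21, 0.22 and 0.1 FPKM in βTC6, fell under the level filter through αTC1 replicate 1. The 8 metabotropic receptors summed to 0.04 to 0.14 FPKM in αTC1 and 0.44 to 0.75 FPKM in βTC6, with no single value above 0.37 FPKM and no counts for Grm6.

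By level, αTC1 ranked Grik5 first and Grin1 second, whose ranges of 27.38 to 32.08 and 27.02 to 29.48 FPKM overlapped. βTC6 ranked Grin1 first, clear of Grik5, whose range of 18.03 to 26.29 FPKM overlapped that of Gabbr2. Without the level filter, 47 of the 51 genes had at least 1 count and 19570 genes were tested. Then 16 members were called higher in βTC6 and 7 lower, next to 12.8% and 5.21% of all genes. The 9 that join the higher group, among them Gabra2, Gabra5, Gabre, Gabrg1, Gabrr1, Grik1, Grin2b and Grm7, all lay at or under 0.37 FPKM. Gabra2, Gabre, Grik1, Grin2b and Grm7 had no counts in αTC1, and against 3 counts over that group Gabre, with 60 counts in βTC6, was at least 18.7-fold higher and Grik1, with 13, at least 4.04-fold higher. The 6 that join the lower group are Gad1, Gria1, Gria2, Grik3, Grik4 and Grin3b.

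Among 82 other genes of the pathway, listed with earlier results in view, 81 were in the tables and 56 were tested. Of these, 11 (19.6%) were called higher in βTC6 and 4 (7.14%) lower, next to 10.2% and 4.08% of all genes tested. By FDR alone 30 (53.6%) were higher and 21 (37.5%) lower, next to 38.7% and 36.0%. In uptake and metabolism, 2 of 10 genes tested were called, both glutamate uptake transporters: Slc1a1 was at 0.03, 0.01 and 0 FPKM in αTC1 and at 4.32, 3.33 and 4.67 FPKM in βTC6, and Slc1a2 at 0 in αTC1 and at 1.17, 1.07 and 1.28 FPKM in βTC6. Abat, which breaks GABA down, was at 18.2 to 21.0 FPKM in αTC1 and 32.8 to 35.8 FPKM in βTC6 (log2 fold change 0.88 ± 0.08, edgeR FDR = 7.03e-06), under the fold threshold.

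Some of the genes whose products anchor or assist the receptors were called. Of 12 GABA-A trafficking genes, all tested, Gabarap (2.2 ± 0.09) and Plcl1 (9.47 ± 0.40) were called higher in βTC6 and 1 was called lower (16.7% and 8.33%, next to 10.2% and 4.08% of all genes), and gephyrin (Gphn) was higher by 1.01 ± 0.07 on the log2 scale, under the fold threshold. Of the GABA-B auxiliary subunits, Kctd8 rose from 0.04 to 0.06 FPKM to 1.16 to 1.8 FPKM. Among 13 tested AMPA and kainate auxiliary and anchoring genes, 2 were called higher (15.4%) and none lower. Of these, Cacng4, a transmembrane AMPA regulatory protein, was at 0.02 to 0.03 FPKM in αTC1 and 7.94 to 11.3 FPKM in βTC6, and Dlg2 rose by 4.24 ± 0.25 on the log2 scale. Cacng7, its relative, was higher in αTC1, at 51.2 to 56 FPKM against 21.8 to 23.0 FPKM, under the fold threshold.

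The effectors of GABA-B and GABA-A receptors were measured too. Of the G protein-gated potassium channels that GABA-B receptors open, Kcnj6 was called higher in βTC6 (5.73 ± 0.38) and Kcnj3 (-2.99 ± 0.35) and Kcnj9 (-8.76 ± 0.48) lower. Chloride cotransporters set whether GABA-A channels excite or inhibit. Their best known pair, Slc12a2 (NKCC1) and Slc12a5 (KCC2), did not pass the test, with log2 fold changes of 0.14 ± 0.11 and -0.13 ± 0.11, whereas Slc12a7 (KCC4) was at 0 to 0.05 FPKM in αTC1 and 5.32 to 13.2 FPKM in βTC6. The delta receptor gene Grid1 rose by 8.30 ± 0.29 on the log2 scale. Rest, the repressor of neuronal genes, was below the filter, at 0 to 0.01 FPKM in αTC1 and 0.31 to 0.37 FPKM in βTC6.

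Chromatin near these genes was more often open in βTC6. Of the 211 peaks, 49 (23.2%) were called higher in βTC6 and 9 (4.27%) higher in αTC1 (limma on log2(normalised read count + 1), FDR under 5% and absolute log2 fold change over 2), next to 12.9% and 5.38% of all peaks. By FDR alone 129 were higher and 49 lower, next to 39.9% and 38.1%. The median log2 fold change was 1.13 over the member peaks and 0.00 over all peaks, and among the chromosomes that hold member peaks the median over all peaks lay between -0.79 (chromosome 6) and 0.40 (chromosome X). Of the 211 peaks, 102 were intronic, 87 intergenic and 22 exonic by GENCODE vM1 at their centre. Within 2 kb of a start site, 13 of 43 were higher in βTC6 (30.2%) and none in αTC1, next to 5.51% and 1.41% of all such peaks.

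The count of called peaks rests on the number added before the logarithm. With 5 added in place of 1, 11 were called higher in βTC6 and 1 lower, next to 2.56% and 1.26% of all peaks, and with 0.5 added 69 and 12, next to 17.3% and 7.11%. By class, GABA-A genes held 18 peaks called higher in βTC6 and 3 lower of 68, GABA-B genes 6 and 0 of 11, AMPA genes 7 and 1 of 32, NMDA genes 4 and 0 of 26, and metabotropic genes 7 and 0 of 24. In these classes the shares called higher ran from 15.4% for NMDA to 54.5% for GABA-B genes, next to 12.9% of all peaks. With 5 added, the peaks called higher became 3 for GABA-A, 2 for GABA-B, 1 for AMPA, 1 for NMDA and 3 for metabotropic genes. None in these classes was then called lower. Kainate genes held 5 peaks called higher in αTC1 (17.2%, next to 5.38% of all peaks) and 4 higher in βTC6 of 29, but 1 of each with 5 added. The 9 peaks near rho subunit genes held no call.

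**Figure D3:**
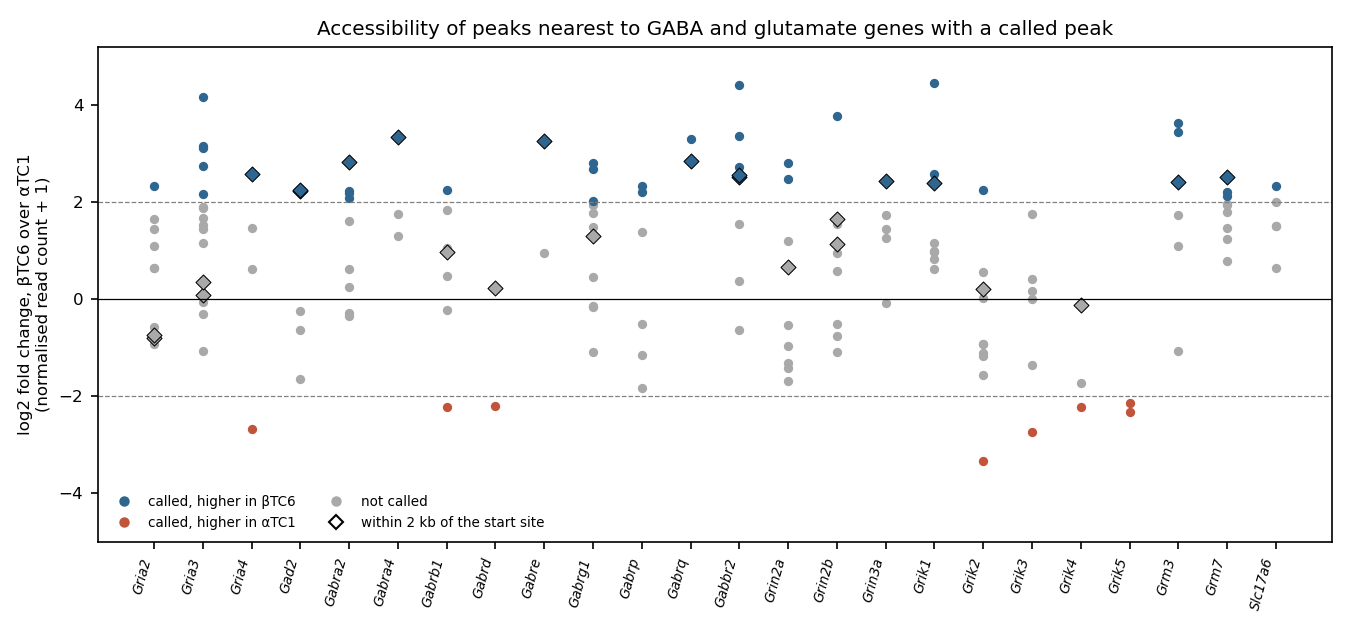
Each point is a peak of a gene with at least 1 called peak, placed above that gene, at its log2 fold change (βTC6 over αTC1). Blue points are called higher in βTC6, red points higher in αTC1 and grey points not called, diamonds lie within 2 kb of the start site, and dashed lines mark 2 and -2. No diamond is red, and the highest points stand above Grik1, Gabbr2 and Gria3.

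Start sites of the genes called higher in βTC6 were more open there. The Gabbr2 promoter peak (chr4:47004414-47005030) had normalised read counts of 0.98, 0.70, 0.90, 0.14 and 0.72 in αTC1 and 11.4, 9.02, 9.19, 6.14 and 7.70 in βTC6 (log2 fold change 2.52 ± 0.22, limma FDR = 2.8e-09). The Gad2 promoter peak (chr2:22477425-22478322) had 3.08, 4.92, 4.21, 3.82 and 2.46 in αTC1 and 20.2, 23.0, 17.7, 23.3 and 20.5 in βTC6 (2.24 ± 0.17, limma FDR = 4.12e-10). The Gabra4 promoter peak had the largest change of these, with 4.62, 4.35, 4.36, 5.32 and 3.90 in αTC1 and 52.5, 45.1, 45.3, 51.7 and 87.7 in βTC6 (3.34 ± 0.16, limma FDR = 5.06e-13). Those of Gabrq (2.85 ± 0.20) and Gria4 (2.57 ± 0.15) were called as well, and none of these 5 overlapped between lines. With 5 added before the logarithm only Gabra4 of the 5 stayed past the fold threshold (2.65), with Gabbr2 at 1.26, Gad2 at 1.58, Gabrq at 1.93 and Gria4 just under 2, all still under 5% by limma FDR. Gabra3 (1.40 ± 0.24) changed the same way below the fold threshold, with 12 reads over all αTC1 libraries and with overlap between the groups.

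Among tested genes with lower RNA in βTC6, the promoter peaks of Grik2, Gria2 and Gria3 were not called lower there. Of all peaks within 2 kb of a start site 1.41% were called lower, and so few peaks cannot show a difference from that share. The Grik2 promoter peak had 51.1, 53.8, 53.4, 56.0 and 40.7 in αTC1 and 58.7, 55.8, 50.0, 64.4 and 65.3 in βTC6, overlapping groups with a log2 fold change of 0.20 ± 0.10 (limma FDR = 0.0723), while its RNA fell 5.62-fold. The Gria3 promoter peak did not differ beyond its spread (0.10 ± 0.17, limma FDR = 0.618). That of Gria2 was lower in βTC6 by a smaller step than its RNA, at 42.8 to 52.7 in αTC1 and 21.3 to 36.2 in βTC6 (-0.80 ± 0.13). The promoter peak of Grin1 (-0.93 ± 0.17) was lower in βTC6, although its RNA was slightly higher there. That of Gabbr1 (-0.34 ± 0.13), whose RNA was also slightly higher in βTC6, had overlapping groups. Its change lay near the median of -0.31 over all peaks within 2 kb of a start site. Grik5 had no peak within 2 kb, and the only peak of Gad1, at -3.87 kb from the annotated start and inside a Gad1 intron of GENCODE that another transcript overlaps, lay at 5.32 to 13.2 in αTC1 and 1.03 to 5.54 in βTC6 (-1.15 ± 0.29, limma FDR = 0.00135), with overlap between the groups.

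Open promoters also lay at genes with almost no RNA. A peak within 2 kb was present at 33 of the 51 genes, 13 of the 14 tested and 20 of the 37 others. Taking only the peak nearest to each start, 11 of the 13 peaks called higher in βTC6 remain, since Gabbr2 and Gad2 hold a pair each. Of these 11, 5 belonged to tested genes and 6 to genes under the level filter: Gabra2, Gabre, Grik1, Grin3a, Grm3 and Grm7. With 5 added before the logarithm the 11 became 3, of which 2 belonged to genes under the level filter. At Gabra2 the peak rose from 8.23 ± 1.15 to 65.9 ± 18.4 (mean ± SD, n = 5), as high as at Gabra4, beside 0.24, 0.11 and 0.25 FPKM of RNA in βTC6. At Grm3 it rose from 8.45 ± 0.91 to 49.8 ± 11.5, beside 0.08, 0.08 and 0.02 FPKM. Grm8 had peaks of 32.7 ± 2.0 and 41.9 ± 9.0 in αTC1 and βTC6, 1.24 kb upstream of its start, with at most 0.09 FPKM in any library.

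**Figure D4:**
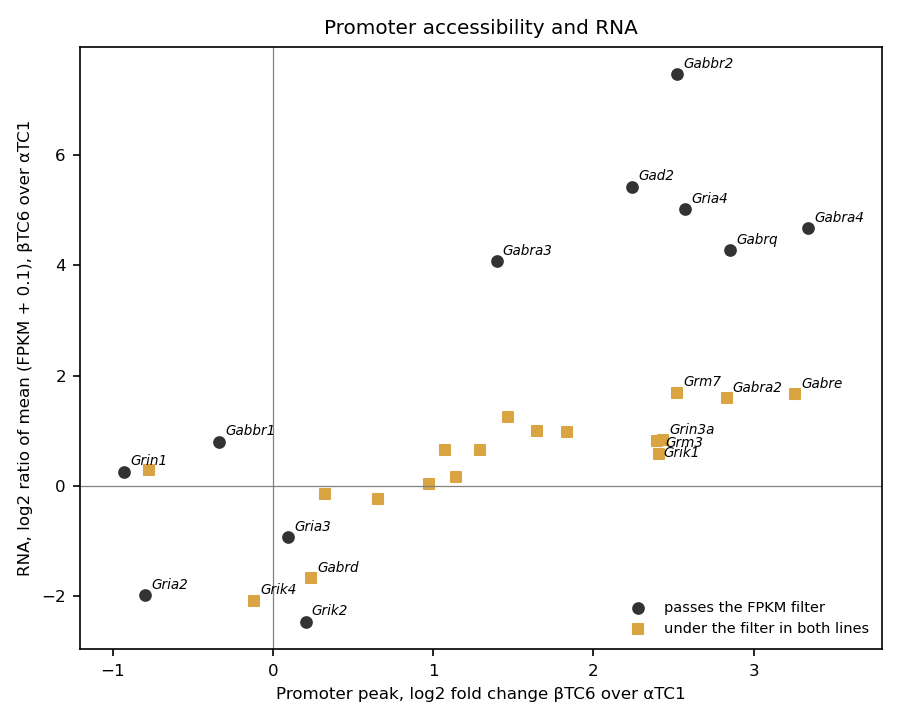
For genes with a peak within 2 kb of the start site, the log2 fold change of the nearest such peak is on the x axis and the log2 ratio of mean FPKM plus 0.1 on the y axis. Black circles pass the level filter and yellow squares do not. The genes plotted that were called higher in βTC6 by RNA lie at promoter changes of 1.40 or more, Gabra2, Gabre, Grm7 and Grm3 lie beyond 2 with little RNA, and Grik2, Gria2 and Gria3 lie below 0 on the y axis with promoter changes between -0.80 and 0.20.

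Several of the largest fold changes lay far from start sites. An intronic peak of Grik1, 242 kb into the gene (chr16:88048349-88049444), had 1.82, 2.95, 1.65, 2.05 and 3.03 in αTC1 and 68.2, 73.6, 54.5, 63.4 and 103 in βTC6 (log2 fold change 4.47 ± 0.17, limma FDR = 2.95e-14). Grik1 RNA did not exceed 0.1 FPKM. An intronic peak of Gabbr2, 141 kb from the start (chr4:46862790-46863400), had 14 reads over the 5 αTC1 libraries and 1055 over those of βTC6, with normalised read counts of 24.4 to 31.2 in βTC6 (4.41 ± 0.21, limma FDR = 5.16e-13). The lowest value in each library is that of 1 read, so 0 and 1 read look alike. Grin2b (64 kb, 3.78 ± 0.16) and Grm3 (102 kb, 3.63 ± 0.16) held further intronic peaks called higher in βTC6. With 5 added before the logarithm these values became 3.38 for Grik1, 2.61 for Gabbr2, 2.83 for Grin2b and 2.71 for Grm3, next to 2.65 for the Gabra4 promoter peak.

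Gria3 held 18 peaks, 5 of them called higher in βTC6 (27.8%, next to 12.9% of all peaks) and none higher in αTC1, although its RNA was lower in βTC6. Only 1 of the 18 was called with 5 added before the logarithm. The leading one, 24.5 kb from the start (chrX:38778414-38779505), had 0.14, 1.12, 0.45, 1.23 and 1.16 in αTC1 and 29.4, 35.1, 27.8, 26.8 and 35.4 in βTC6 (4.17 ± 0.21, limma FDR = 1.46e-12), or a log2 fold change of 2.62 with 5 added. Of the 10 peaks of Gria2, 1 was called higher in βTC6, 100 kb from its start (2.34 ± 0.22), a call that ended with 5 added (1.44). Peaks in the direction of the RNA were present at both genes, down to -1.06 at Gria3 and -0.92 at Gria2, but none was called.

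Peaks higher in αTC1 were fewer and mostly intronic. The strongest, 191 kb inside Grik2 (chr10:49316827-49317988), had 29.1, 28.4, 24.2, 27.2 and 34.5 in αTC1 and 1.85, 3.69, 1.89, 1.28 and 1.5 in βTC6 (-3.33 ± 0.19, limma FDR = 8.62e-12). It goes the same way as the RNA of Grik2, whose promoter peak did not pass the test. Another of the 10 peaks of Grik2 was called in the other direction, at 2.26. Both peaks of Grik5, each in an intron, were called, the leading one 15.2 kb from its start at 10.1 to 17.0 in αTC1 and 0.71 to 2.72 in βTC6 (-2.33 ± 0.25). Other called peaks lay near Grik3 (-2.74 ± 0.27), Grik4 (-2.23 ± 0.20), Gabrb1 (-2.23 ± 0.20) and Gabrd (-2.19 ± 0.22), and upstream of Gria4 at -237 kb (-2.68 ± 0.22), a gene that was higher in βTC6. With 5 added before the logarithm, only the Grik2 peak was still called (-2.26).

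GABA-A genes sit in clusters, of which 2 are described and the others are not reported here. On chromosome 5, Gabrg1, Gabra2, Gabra4 and Gabrb1 (71142286 to 72529628 on mm9) held 30 peaks, 9 called higher in βTC6 and 1 lower (30.0% and 3.33%, next to 12.9% and 5.38% of all peaks), yet only Gabra4 reached the level filter. On chromosome X, Gabre, Gabra3 and Gabrq held 6 peaks, 3 called higher in βTC6 (50.0%) and none lower, and Gabra3 and Gabrq were called by RNA. Medians of the log2 fold change over these peaks were 1.40 on chromosome 5 and 2.27 on chromosome X, next to 0.31 and 0.40 over all peaks of those chromosomes. With 5 added before the logarithm, 3 of the 30 peaks and 0 of the 6 were called higher.

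In the mixtures, the 10 peaks with the largest moderated t, 5 in each direction, correlated with the share of αTC1 cells. They were chosen by their difference between the pure lines, which the mixtures combine. The direction of each relation was thus set in advance, and the p-values are no separate support for it. The Gabbr2 intronic peak read 30.7, 22.6, 20.8, 19.0, 14.3, 8.74, 6.36, 3.99 and 2.44 from 10% to 90% αTC1, falling at every step (Pearson r = -0.99, Spearman rho = -1, both exact permutation p = 5.5e-06, the smallest that 9 mixtures allow, Benjamini-Hochberg adjusted 1.4e-05 over 10 peaks). The Grik1 peak fell from 92.0 to 9.96 (r = -0.96, adjusted exact permutation p = 1.6e-05). The Grik2 intronic peak rose from 6.59 to 31.3 (r = 0.95, adjusted exact permutation p = 0.00039) with dips at 40%, 70% and 90%. The weakest was the Grik4 peak (r = 0.76, rho = 0.83, adjusted exact permutation p = 0.019 and 0.0083), which had 15 reads over all βTC6 libraries. The mixtures did not lie on a straight line between the pure means. The largest gap to that line was between 14.1% of the difference between the pure means (Grin2b) and 86.9% (Gabrb1, which read 24.0 at 90% αTC1 cells beside a pure αTC1 mean of 14.6), and Grik1 at 10% αTC1 cells lay above its pure βTC6 mean of 72.6. Without the 10% and 90% mixtures, r ranged from -0.99 to -0.96 for the 5 peaks higher in βTC6 and from 0.90 to 0.97 for the others.

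**Figure D5:**
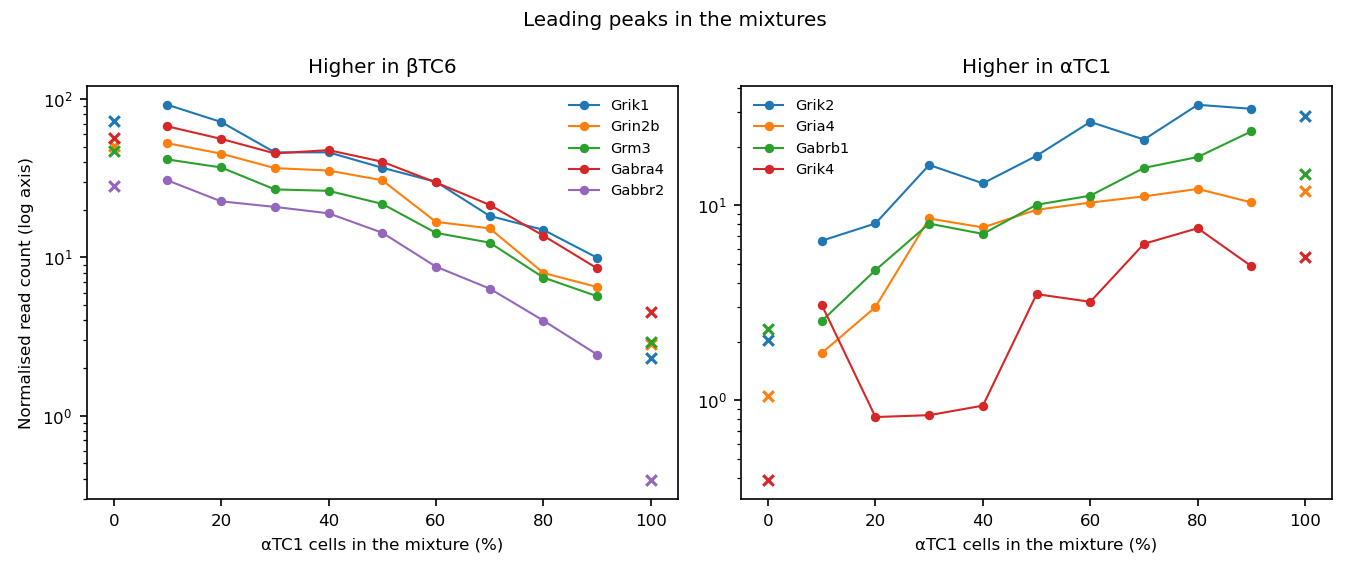
Normalised read count on a log axis against the share of αTC1 cells for leading peaks in each direction, 1 library per mixture, named by nearest gene. Crosses at 0% and 100% are means of the 5 pure libraries. The lines on the left fall from left to right, and those on the right end higher than they begin, with the Grik4 line under 1 from 20% to 40%.

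Most of the 49 peaks called higher in βTC6 could be seen when βTC6 cells were a minority. With 10% βTC6 cells, 27 of the 49 (55.1%) exceeded the highest αTC1 library, with 20% βTC6 cells 41 (83.7%), and with 50% all 49. Over all peaks called higher in βTC6 these shares were 51.4%, 74.8% and 98.5%. With 10% αTC1 cells, 4 of the 9 peaks called higher in αTC1 (44.4%) exceeded the highest βTC6 library, and with 20% αTC1 cells 7 of 9 (77.8%), beside 65.7% and 89.9% of all peaks called higher in αTC1.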

How the data were processed

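RNA-seq and ATAC-seq tables of αTC1, βTC6 and their mixtures were used. The authors trimmed RNA-seq reads with Trim Galore, aligned them to mm9 with Bowtie 2 and estimated expected counts and FPKM values with RSEM 1.2.12, and both tables were deposited. The kit kept the strand, but RSEM ran at its defaults, which do not use it, so reads of a gene and of a transcript overlapping it, as at Gad1 and Grin1, cannot be told apart. For ATAC-seq the authors deposited a signal per consensus peak, a read count scaled by TMM, made with BWA, Picard, MACS2 2.1.0, DiffBind 2.2.5 and HOMER 4.6. Whole reads were recovered from them for 100% of the values.

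Genes were tested with edgeR 4.0.16 (quasi-likelihood, TMM) after rounding the expected counts, keeping genes at 1 FPKM or more in every replicate of one line. The standard error is the absolute log2 fold change over the square root of F. The 92 spike-in rows stayed out. Peaks were tested with limma 3.58.1 (eBayes with trend) on log2(value + 1). Benjamini-Hochberg adjustment ran over all genes or peaks, and a call needed both an FDR below 5% and a log2 fold change beyond 2 in size. Both scripts were tested on simulated data. Counting intervals are exact, at 95%, and cover counting error only. The floor was 3 counts. Per-sample columns not mapped to a sample numbered 0.

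Named in full were genes passing the level filter, Gad1, Gad2, the vesicular transporters and both GABA-B genes, with Gabrd, Gria1 and the low-level genes given as additions. Named peaks were the nearest within 2 kb of tested genes, the 5 with the largest moderated t in each direction and the leading called peak of each gene. Members and lists were chosen with earlier results of these data known. Gene positions came from GENCODE vM1 on mm9, which held all 51 genes. Some genes and their peaks are counted in totals but not reported here. DESeq2 1.42.0 and other settings were alternatives.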

Additional observations from a re-analysis of the deposited data

Results flagged for a closer look

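In groups of 5 ATAC-seq libraries of the named peaks, 1 library lay far from the other 4 in 8 of 66 groups, where chance gives about 1 in 20. In βTC6 replicate 5, the Gabra2 promoter peak was at 97.8 with the next library at 63.8, and the Gabra4 promoter peak at 87.7 with the next at 52.5. In αTC1 replicate 5, the Gabrb1 peak at 230 kb was at 19.8 with the next at 13.7, and the Grm7 peak at 727 kb at 29.9 with the next at 14.1. In αTC1 replicate 4 the Gabra3 promoter peak was at 0.955 with the next at 0.289, and in αTC1 replicate 2 the Gad1 peak was at 13.2 with the next at 6.91. In βTC6 replicate 2 the Grik2 intronic peak was at 3.69 with the next at 1.89, and in βTC6 replicate 3 the Grik4 peak was at 1.08 with the next at 0.376. Each of these peaks kept its direction and its side of the threshold without the library named.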

How the results depend on the processing

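Depth and low values set the limits: 37 of the 51 genes lay under the level filter, and many peaks held few reads in the line where they were closed. Without the level filter, 16 genes were called higher in βTC6 and 7 lower (22 and 10 by FDR alone, next to 30.2% and 27.2% of all genes). With a filter at 0.1 FPKM, 28 genes were tested and 12 and 6 called, next to 14.1% and 5.81% of all genes (17 and 9 by FDR alone, next to 37.9% and 35.1%). The spike-in factor as a covariate gave 2 lower calls, Gria2 joining at -2.01, and spike-in scaling left 2 lower and 7 higher by FDR alone. With 5 added before the logarithm, 11 peaks were called higher in βTC6 and 1 lower, next to 2.56% and 1.26% of all peaks, and 3 promoter peaks were higher, 2 of them at genes under the level filter. edgeR on recovered reads called 92 higher and 12 lower, next to 21.2% and 8.82%. Among the 102 peaks with a mean of at least 5, 60 were higher and 30 lower by FDR alone, next to 35.1% and 44.9% of all such peaks. Quantile normalisation gave 36 and 12 calls, next to 8.69% and 7.88% of all peaks, and reversed the sign of the Gria3 promoter peak (-0.089), as did leaving out 1 library, which gave -0.016 without βTC6 replicate 2, -0.0069 without αTC1 replicate 5 and up to 0.181 without βTC6 replicate 3, none past the threshold. The cause of these changes was not tested, except that fewer or more features were tested under the filters. Leaving out 1 library at a time gave 7 higher and 1 to 2 lower gene calls (9 to 10 and 3 to 4 by FDR alone), the 2 without βTC6 replicate 1, and 50 to 53 higher and 8 to 9 lower peak calls (126 to 130 and 44 to 48). The replicate block gave 7 and 1 gene calls and 49 and 9 peak calls (134 and 48 by FDR alone), and since every correlation of same-numbered deviations was under 0.1, and not every library correlated best with its own number, the numbers were not taken to pair libraries. Replicates 1 to 3 alone gave 49 and 8 peak calls, next to 12.5% and 4.82% of all peaks, and 4 and 5 alone 54 and 10, next to 14.3% and 6.71%. Counting within 1 kb left 28 of 33 genes with a promoter peak and 11 higher. The 10 mixture relations stayed past the threshold on the log scale, on recovered reads and without the 10% and 90% mixtures. The fit without a filter and without αTC1 replicate 3, and the promoter counts with 5 added, were chosen after the data were seen.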
